A study of Mus musculus with 2 samples.

Results

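The sites described here are KLF6 binding sites that lay at an intermediate distance from a gene, outside it and with the site's summit above 20 kb and at most 100 kb from the gene's start. They were chosen by position alone, from rows of the authors' lists placed upstream or downstream of the assigned gene, and rows whose gene description named the small RNA databases RFAM or miRBase were left out. This gave 178 of 742 sites in the list of experiment 1 (24.0%) and 253 of 901 sites in the list of experiment 2 (28.1%). Sites that overlapped between the lists counted once, these were 403 of 1531 distinct sites. Another 31 and 36 sites at this distance were assigned to small RNA genes and are not among them.

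Chromatin immunoprecipitation with sequencing (ChIP-seq) had been done on hepatocellular carcinoma cells of mouse, an HCC line that the labels do not name further. The cells had received a plasmid for full-length KLF6 fused to a V5 tag. Both groups share that treatment. One sample was DNA precipitated with a V5 antibody, and the other was DNA of such cells without precipitation, called input. The design thus holds 1 sample a group. The first list pools a pair of sequencing runs of experiment 1 and the second holds experiment 2. The tagged protein was supplied by the plasmid, a precipitation from cells without it is not among the samples, and whether the cells were 1 clone is not given in the sources used here.

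KLF6 is a transcription factor of the Krüppel-like family, whose zinc fingers recognise GC-rich and CACC-type DNA, and it has been studied in liver injury and as a tumour suppressor in liver cancer. Factors of this kind bind both promoters and distal elements such as enhancers, which can act on genes over many kilobases and past nearer genes. The gene with the nearest start is therefore a label for a site's position and not a known target. Build mm9 was the one named in the submitters' processing notes, and coordinates below are those of the lists.

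Among the 28 sites of this distance class found in both experiments, those with the best mean rank of fold lay upstream of the genes for sciellin, Crtam, Rhob and Nova1. Fold enrichment is the authors' ratio of precipitated DNA over the background that their peak caller expected. Tags are reads at a site, for which the lists name no library, so tag counts and values made from them describe sites within a list. Where values of both lists stand side by side below, they have no common scale. A site counted as found in both lists when at least 1 bp overlapped a site of the other list. By that rule 28 of 178 sites of experiment 1 (15.7%, exact Clopper-Pearson 95% interval 10.7 to 21.9) and 28 of 253 of experiment 2 (11.1%, 7.48 to 15.6) were in both. The same rule held for 14.7% of all sites of experiment 1 and 12.4% of all sites of experiment 2, so the shares at this distance lay near the background of their lists. The intervals cover counting error only.

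Of all pairs, those at sciellin and Crtam had the highest fold in both experiments. Upstream of the gene for sciellin (ENSMUSG00000022123), a protein of the cornified envelope of skin, the site held 244 tags in experiment 1 and 81 in experiment 2, the folds were 75.3 and 60.5, and the summits lay 32 bp apart. The site upstream of Crtam, an adhesion receptor of activated lymphocytes, held 85 and 35 tags with a fold of 43.0 and 49.4. The FDR was 0% and 100% at the sciellin site and 16.7% and 80% at that of Crtam. These sites ranked first and second by fold among the sites of their distance in both lists.

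The site 31.2 kb upstream of Rhob, a small GTPase of endosomes and the actin cytoskeleton, lay on chromosome 12 from 8537505 to 8537827. Its tag counts were 73 and 32 and its folds 39.1 and 31.8 (experiment 1, then 2, here and in the pairs below), and both lists placed its summit at the same base (an offset of 0 bp). The site 39.6 kb upstream of Nova1, a neuronal regulator of splicing, lay on chromosome 12 from 47958909 to 47959748. Its tags were 56 and 25 and its folds 27.6 and 19.3, with the lowest false discovery rate (FDR) of any intermediate-distance site of experiment 2, at 20%. Both sites were thus among the stronger ones of each list, although the authors' FDR for Rhob was 20% in experiment 1 and 50% in experiment 2.

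Of the pairs, 3 lay near genes of transcription regulators, and the one at Foxc1 had unequal folds in the lists. The site 32.4 kb upstream of Foxc1, a forkhead factor of eye and mesoderm development, lay on chromosome 13 from 31865675 to 31866470. Its fold was 33.0 with 89 tags in experiment 1 and 10.3 with 21 tags in experiment 2, a log2 ratio of 1.68 and the widest gap of the 28 pairs. The site 27.7 kb downstream of the start of Olig1, a helix-loop-helix factor of the oligodendrocyte lineage, lay on chromosome 16 from 91297405 to 91298027 and gave 17.3-fold and 22.3-fold. The site downstream of Tle3, a corepressor of the Groucho family, lay on chromosome 9 from 61302212 to 61302782, 82.0 kb from the gene start, and gave 8.71-fold and 10.5-fold.

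Another 4 pairs lay near genes of transport and of glutathione synthesis. The site 51.4 kb upstream of Slco4c1, an organic anion transporter gene, lay on chromosome 1 from 98819887 to 98820564 and gave 11.1-fold and 21.7-fold. The site 27.6 kb upstream of Slc25a13, which encodes the mitochondrial carrier citrin, lay on chromosome 6 from 6194419 to 6195078 and gave 12.7-fold and 10.5-fold. A site of 15.3-fold and 14.0-fold lay 42.7 kb upstream of a shaker-type potassium channel gene (ENSMUSG00000038077) on chromosome 6 from 126732757 to 126733364. Gclc, the catalytic subunit of glutamate-cysteine ligase in glutathione synthesis, had its site on chromosome 9 from 77568636 to 77569003, with 24 tags in experiment 1 and 14 in experiment 2. All 4 lay upstream, and those at Slco4c1 and Gclc had the higher listed fold in experiment 2.

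Further pairs lay near genes of synapses and of phagocytes. C1ql2, which encodes a secreted C1q-like protein of synapses, had a site 20.7 kb upstream on chromosome 1 from 122216005 to 122217052, with folds of 16.0 and 15.9. Rph3a, an effector of Rab3 on synaptic vesicles, had a site 34.7 kb upstream on chromosome 5 from 121494015 to 121494508, with folds of 11.1 and 14.3. The gene for signal-regulatory protein alpha (ENSMUSG00000037902), the CD47 receptor of phagocytes, had a site on chromosome 2 from 129466748 to 129467256, with folds of 13.3 and 12.7. That site lay 48.3 kb from the gene's start but 8.95 kb beyond its other end, and its folds, like those at C1ql2, were nearly alike in the experiments.

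The site upstream of H28, a minor histocompatibility gene, lay on chromosome 3 from 151452578 to 151453290 and gave 21.6-fold and 13.5-fold. Ankfn1 had a site 90.5 kb upstream on chromosome 11 from 89591031 to 89591624, where the folds were 20.1 and 20.3 and the FDR was 1.61% in experiment 1 and 93.9% in experiment 2. The remaining pairs with a symbol were Tmem72 (10.2-fold and 12.7-fold), A230072I06Rik (17.9-fold and 10.3-fold) and Cyyr1 (6.65-fold and 10.0-fold). A pair downstream of the gene for poly(A) polymerase alpha (ENSMUSG00000021111), which adds the tails of messenger RNA, lay on chromosome 12 from 107120833 to 107122049, with folds of 12.1 and 23.3. Of the 28 pairs, 16 thus had a gene symbol, 5 had a description without one, and 7 had neither.

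Pairs without a symbol were also among the stronger ones. A site 36.9 kb upstream of ENSMUSG00000082420 on chromosome 5 (67244443 to 67245170) gave 27.0-fold and 15.8-fold, and one 49.1 kb downstream of ENSMUSG00000084382 on chromosome 15 (37471364 to 37472070) gave 32.0-fold and 13.6-fold. A site 33.0 kb downstream of ENSMUSG00000081123 on chromosome 2 (166293075 to 166293592) gave 19.9-fold and 19.6-fold. A site 72.1 kb upstream of ENSMUSG00000077876 on chromosome 12 (98317818 to 98318620) gave 21.2-fold and 15.9-fold, and one upstream of ENSMUSG00000066107 on chromosome 4 (91896940 to 91897432) gave 13.2-fold and 23.9-fold. These are the 5 such pairs of best mean rank after that at sciellin, and 4 of the 5 assigned features were under 1 kb long (0.0910 to 0.521 kb), with ENSMUSG00000066107 at 1.00 kb. With ENSMUSG00000077876, ENSMUSG00000080377 and ENSMUSG00000080651 had the shortest features among the pairs, of 0.0910, 0.110 and 0.0880 kb. They carried no description, so the rule on small RNA genes could not apply to them.

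**Figure D1:**
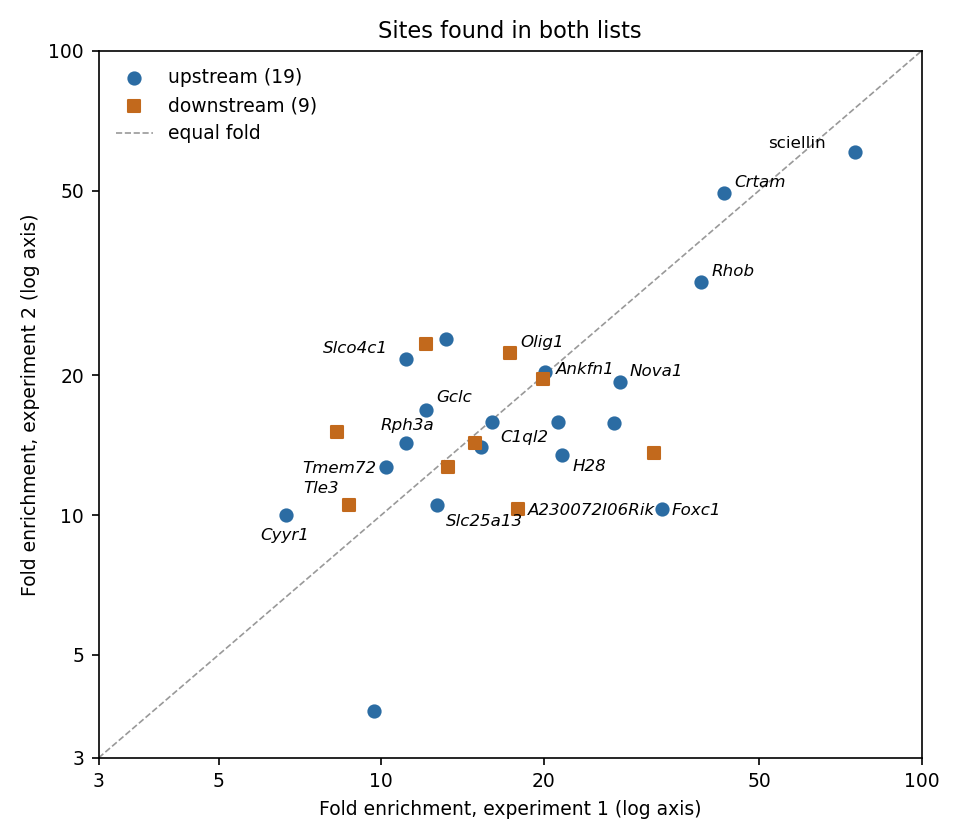
Fold enrichment of the 28 sites found in both lists, experiment 1 on the x axis and experiment 2 on the y axis, both on log axes. Circles are sites upstream of the assigned gene, squares are sites downstream, and the dashed line marks equal fold. The sites at sciellin, Crtam and Rhob lie highest in both, and Foxc1 lies farthest below the line.

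The positions of the pairs were close although their extents differed. The lists assigned the same gene and the same direction at 28 of 28. The summits lay a median of 10.5 bp apart, within 20 bp at 22 pairs and at most 67 bp apart, at A230072I06Rik. The site was wider in experiment 1 at 28 of 28, with a median width of 640 bp against 316 bp, and held more tags there at 28 of 28, with a median ratio of 2.41. Experiment 1 pools a pair of runs and depth is unknown, so this ratio is not calibrated between the experiments. The fold was higher in experiment 1 at 16 pairs and in experiment 2 at 12, and it differed by at most 1.5 times at 17. Across the 28 pairs, log2 folds gave Pearson's r = 0.614 and folds a rank correlation of 0.412. That is a description across sites which share their libraries and were strong enough to be listed in both.

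Sites in both lists were those of higher fold. The 28 sites in both lists had a median fold of 15.6 in experiment 1, where the 150 others had 6.66, with quartiles of 11.8 to 22.9 and 5.92 to 8.01. In experiment 2 it was 15.4 at 28 sites and 9.56 at 225 others, with quartiles of 12.7 to 20.6 and 8.21 to 10.9. The interquartile ranges did not overlap in either list. Of the 10 sites of highest fold at this distance, 9 were in both lists in each experiment. The same comparison over the whole lists is not given here, so it is not shown to be particular to this distance. No unshared site of either list had a summit of the other list within 1 kb (0 of 150 and 0 of 225). A further 3 genes, all without symbol, had intermediate-distance sites in both lists that did not overlap, so 31 of 394 genes had sites in both.

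Upstream sites outnumbered downstream sites in both experiments. In experiment 1, 101 sites lay upstream (56.7%, interval 49.1 to 64.1) and 77 downstream. In experiment 2, 142 lay upstream (56.1%, interval 49.8 to 62.3) and 111 downstream. The share was 57.1% in each list among all 632 and 730 sites outside genes, which include this class and the sites of small RNA genes. Within 20 kb, without small RNA genes, it was 69.5% and 70.1%. A count of downstream sites is bounded by the rule, because a site beyond the far end of a gene can be assigned to it only if the gene is shorter than the distance. The assigned genes were shorter downstream, with a median length of 1.91 kb against 5.11 kb upstream in experiment 1 and 1.23 kb against 10.6 kb in experiment 2. What positions drawn at random would give was not computed.

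**Figure D2:**
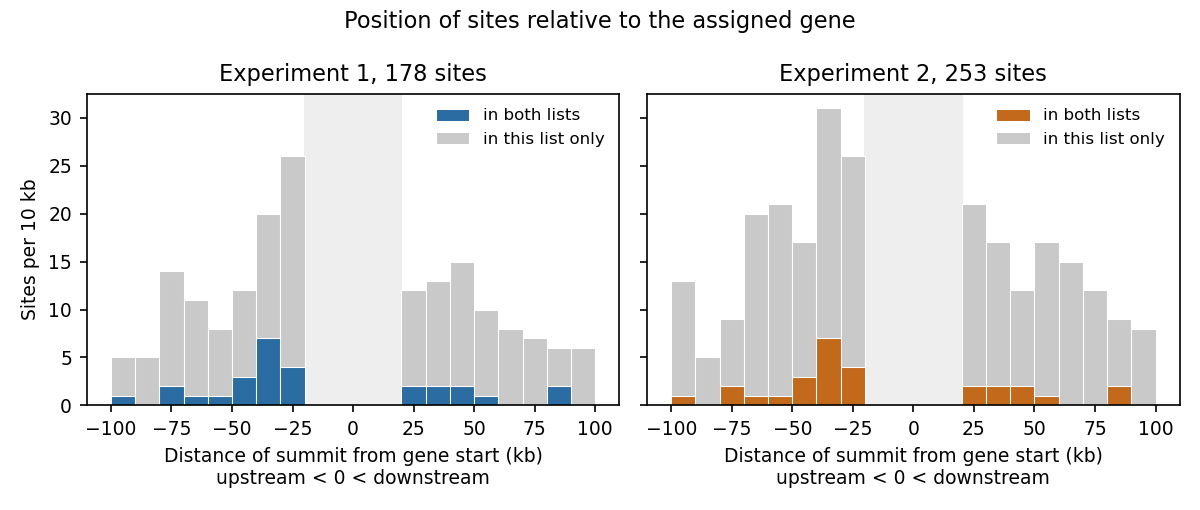
Number of sites per 10 kb by the signed distance of the summit from the gene start, upstream to the left and downstream to the right, with experiment 1 and experiment 2 in separate panels. The coloured part of a bar counts sites in both lists, and the shaded band is the 20 kb on either side of the start that the choice leaves out. Bars are highest between 20 and 40 kb upstream in both panels.

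Fold enrichment of upstream and downstream sites differed little at the median. In experiment 1 the median was 7.33 upstream (95% interval of the median 6.76 to 8.37) and 7.17 downstream (6.57 to 7.75). In experiment 2 it was 10.5 upstream (9.56 to 10.8) and 9.56 downstream (9.17 to 10.0). The intervals overlapped in both. More of the highest folds lay upstream, where 14 of 101 sites of experiment 1 and 13 of 142 of experiment 2 reached 15-fold, against 8 of 77 and 4 of 111 downstream. These are 13.9% and 9.15% upstream against 10.4% and 3.60% downstream. Over all sites outside genes, again with this class and small RNA genes included, the shares were 12.2% and 7.91% against 5.54% and 4.15%. Of the 10 pairs with at least 15-fold in both lists, 8 were upstream, and the downstream ones were those at Olig1 and ENSMUSG00000081123.

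Sites in both lists were also the more frequent upstream, with 19 of 101 (18.8%, interval 11.7 to 27.8) against 9 of 77 downstream (11.7%, 5.49 to 21.0) in experiment 1. Experiment 2 gave 19 of 142 (13.4%, 8.25 to 20.1) against 9 of 111 (8.11%, 3.77 to 14.8). The intervals overlapped widely, and no difference between the directions is claimed from them. Sites are not replicates, and with 1 sample a group no test across samples could be made.

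**Figure D3:**
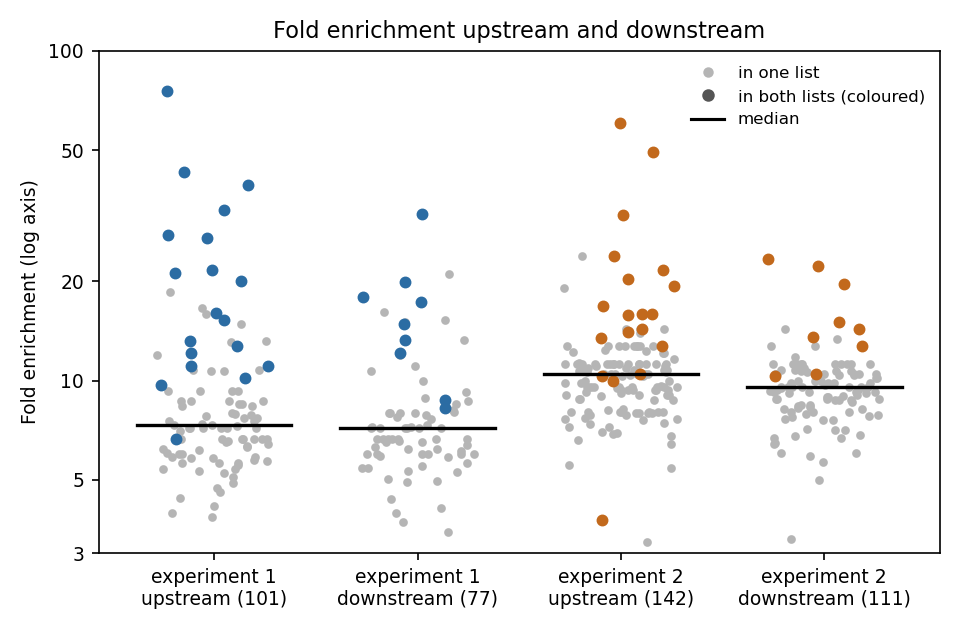
Fold enrichment of each intermediate-distance site on a log axis, by experiment and by direction from the assigned gene. Grey points are sites in one list, coloured points are sites in both lists, horizontal jitter is random, and black bars are medians (7.33, 7.17, 10.5 and 9.56 from left to right). Coloured points sit mostly above the medians.

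Sites became fewer with distance within the class, and the share found in both lists was lowest between 60 and 80 kb with overlapping intervals. Of the sites of experiment 1, 71 lay between 20 and 40 kb (39.9%), 45 between 40 and 60 kb, 40 between 60 and 80 kb and 22 between 80 and 100 kb. Experiment 2 had 95 (37.5%), 67, 56 and 35. Sites in both lists numbered 15, 7, 3 and 3 in these bins, which is 21.1%, 15.6%, 7.50% and 13.6% of experiment 1 and 15.8%, 10.4%, 5.36% and 8.57% of experiment 2. Next to the class, the shares were 20.7% and 21.3% within 20 kb and 6.60% and 6.81% beyond 100 kb. The intermediate distances as a whole (15.7% and 11.1%) thus lay between their neighbours, and their intervals overlapped those on either side in both lists. The median fold moved little over the bins, from 6.92 to 7.65 in experiment 1 and from 9.37 to 10.3 in experiment 2.

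**Figure D4:**
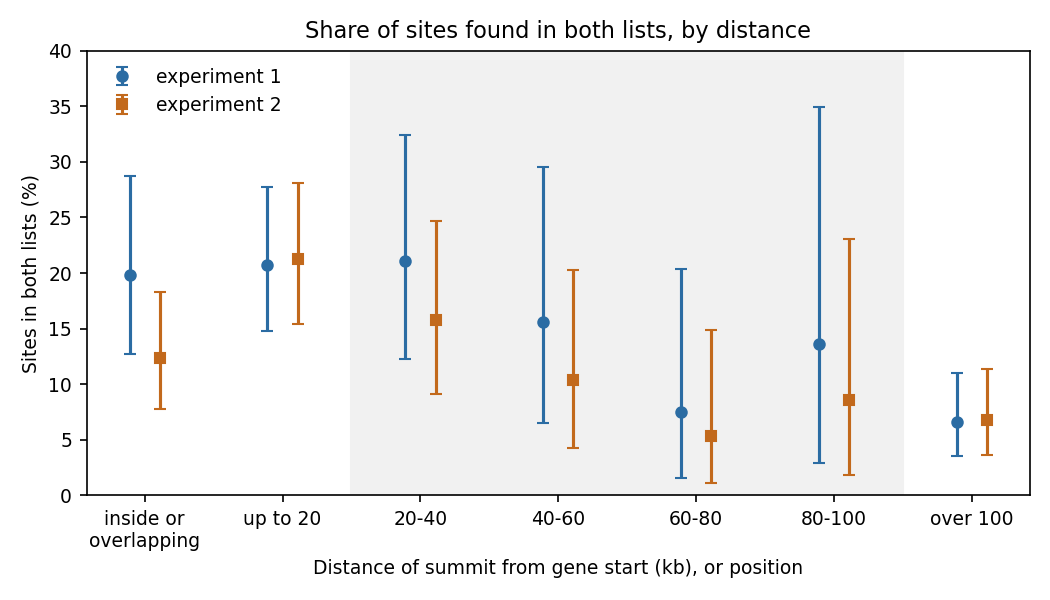
Percent of sites found in both lists by position, from inside or overlapping a gene to over 100 kb from its start, small RNA genes left out. Points are the share in each list, bars are exact Clopper-Pearson 95% intervals, and the shaded bins are the intermediate distances. The share falls from 21.1% and 15.8% at 20 to 40 kb to 7.50% and 5.36% at 60 to 80 kb and is higher again at 80 to 100 kb (13.6% and 8.57%), with wide and overlapping intervals.

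At the edges of the class, in experiment 1 the site nearest above 20 kb lay 20442 bp upstream of Olfr872 at 5.83-fold, and the one nearest below lay 19975 bp upstream of Tpbpa at 7.33-fold. In experiment 2 the site nearest below 100 kb lay 99567 bp downstream of the start of Bmp7 at 10.2-fold, and the one nearest above lay 100019 bp downstream of Tmem132e at 12.4-fold.

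Downstream sites could lie close to the far end of a long gene while still above 20 kb from its start. In experiment 1, 7 of 77 lay within 10 kb of that end and in experiment 2 it was 2 of 111. The closest lay 0.708 kb beyond Sh3glb1, an endophilin of membrane curvature (chromosome 3 from 144352994 to 144353981, 4.93-fold), and 1.83 kb beyond Abca8b, an ABC transporter gene (chromosome 11 from 109793623 to 109793990, 9.27-fold). Another lay 4.46 kb beyond Spsb1, a substrate adaptor of ubiquitin ligases, at 12-fold. The median distance beyond the far end was 37.2 kb over all downstream sites of experiment 1 and 39.3 kb in experiment 2. Sh3glb1 and Abca8b were chosen after their values were seen.

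Some strong sites were listed in one experiment alone. In experiment 1 the highest such fold belonged to a site 48.3 kb downstream of the start of Cd200, an inhibitory ligand of myeloid cells (chromosome 16 from 45352873 to 45353615), with 52 tags at 21.0-fold and an FDR of 2.78%. It was the 1 site of the 10 highest folds of experiment 1 that was not in both lists. The site 89.3 kb upstream of Plcl2, a phospholipase-C-like protein (chromosome 17 from 50559324 to 50559616), held 28 tags at 18.6-fold with an FDR of 1.72%. Downstream, Rybp, a polycomb component, had a site of 16.2-fold (chromosome 6 from 100168092 to 100168864), and Stx11, a SNARE protein of cytotoxic lymphocytes, one of 15.1-fold (chromosome 10 from 12642260 to 12642578).

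Lower in the same list were Hsbp1, which binds heat shock factor (14.9-fold), Gpx5, an epididymal glutathione peroxidase (13.3-fold), and 2610002I17Rik (13.1-fold). Upstream receptor genes followed, with Ptger4 for prostaglandin E and Ednra for endothelin, both at 10.8-fold. Onecut3, a homeodomain factor, was at 10.7-fold, and downstream Mro was at 11.1-fold. The FDR spread widely over these sites, from 1.69% at 2610002I17Rik and 1.75% at Mro to 100% at Ednra, Onecut3 and Spsb1.

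In experiment 2 the strongest sites of one list lay next to each other upstream of Csf2ra, the alpha chain of the GM-CSF receptor. The first held 22 tags with an FDR of 21.1% and the second 14 tags with 100%, and their summits were 328 bp apart. Below them the folds were close together and rested on few tags. Rest, a repressor of neuronal genes, had a site 21.9 kb upstream with 9 tags at 14.3-fold (chromosome 5 from 77672497 to 77672651). Kcnj2, an inward-rectifying potassium channel gene, had one 50.4 kb downstream with 12 tags at 13.4-fold (chromosome 11 from 110977748 to 110978010).

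Upstream sites near Vmn2r81, a vomeronasal receptor, Thoc7 of messenger RNA export and Pdha2, a testis form of pyruvate dehydrogenase, stood at 12.7-fold each with 9 or 10 tags. The downstream sites were at C230012O17Rik (14.3-fold), Krtap16-7 of hair keratin (12.7-fold), 1700008P02Rik (12.7-fold), Fscb of the sperm fibrous sheath (11.8-fold) and Tnp1, a sperm transition protein (11.2-fold). All of these sites had an FDR of 100%. Several of them had the same fold to 3 digits.

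The authors' FDR set few of these sites apart from their control. It was 5% or lower at 15 of 178 sites of experiment 1 (8.43%), where 8.22% of all sites had such a value, so the share at this distance was near the background. Of the 15, 9 were in both lists, and 9 lay upstream. It was 100% at 138 sites of experiment 1 (77.5%, against 78.7% of all sites) and 246 of experiment 2 (97.2%, against 96.8%). These shares too were near those of the whole lists. No site of experiment 2 reached 5% (0 of 253), nor did any site of its whole list (0 of 901). The FDR did not fall steadily as fold rose. In experiment 1 it was 16.7% at Crtam (43.0-fold) and 20% at Rhob (39.1-fold), against 0% at sciellin (75.3-fold) and 1.75% at Mro (11.1-fold). The cut at 5% thus left out some of the sites of highest fold.

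Of 10 gene lists drawn up for KLF6 and liver cancer, 4 had a member with an intermediate-distance site. Gclc was the 1 gene of 22 in the stress and glutathione list, and the only list member with a site in both experiments. Asah1, acid ceramidase and a reported KLF6 target, was the 1 of 25 reported targets, with 12 tags. In TGF-beta and BMP signalling, 2 of 36 genes had a site at this distance, and 4 had a site at any position. They were Smad7, an inhibitory SMAD (chromosome 18 from 75580494 to 75580768, 10 tags at 9.27-fold), and Bmp7, a BMP ligand (chromosome 2 from 172665995 to 172666423, 16 tags at 10.2-fold).

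Pmaip1, which encodes the BH3-only protein NOXA, was the 1 of 28 genes of p53 and apoptosis, with 9 tags 68.7 kb upstream (chromosome 18 from 66549385 to 66549594). The sites at Asah1, Smad7, Bmp7 and Pmaip1 were in experiment 2 alone with an FDR of 100%. The lists of hepatocyte identity (0 of 28), lipid and glucose metabolism (0 of 25) and cell cycle (0 of 28) had no member with any site in either list. The KLF and SP family (0 of 27), autophagy (0 of 26) and adhesion, EMT and angiogenesis (0 of 28) had none at this distance but 2, 1 and 4 members with a site elsewhere. Only sites with a symbol could be counted, which was 79 of 178 and 110 of 253, so these are lower limits.

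Words of the gene descriptions grouped the rest. The groups below hold few sites, so their counts in both lists are not read as differing from the 14.7% and 12.4% of all sites. Transcription regulators were assigned to 8 sites of experiment 1 (4.49%, against 3.64% of all sites) and 11 of experiment 2 (4.35%, against 3.88%), of which those at Foxc1, Olig1 and Tle3 were in both lists. The others in experiment 1 included Alx1, a homeodomain factor of the face (6.22-fold), and Fezf1 of the forebrain (5.61-fold). Those in experiment 2 included Pax3 of neural crest and muscle (8.71-fold).

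Genes described by a receptor word, other than those of smell and taste, were assigned to 9 sites of experiment 1 (5.06%, against 3.37% of all sites) and 11 of experiment 2 (4.35%, against 3.77%). The words did not catch every receptor gene, and Crtam and the gene for signal-regulatory protein alpha, both with a site in both lists, were not among them. Of the sites caught by the words, 0 of 9 and 0 of 11 were in both lists, against 14.7% and 12.4% of all sites. Counts this small do not set the receptor genes apart from that background. Csf2ra and the gene of ENSMUSG00000029778 hold 2 sites each of the 11. In experiment 1 the genes caught included S1pr1 for sphingosine-1-phosphate (8.17-fold) and Npy2r for neuropeptide Y (7.26-fold). In experiment 2 they included Htr1f for serotonin (11.2-fold) and Ifngr1 for interferon gamma (6.95-fold). Olfactory, vomeronasal and taste receptors had 4 sites in experiment 1 and 2 in experiment 2 (2.25% and 0.791%, against 2.83% and 2.00% of all sites), with 0 in both.

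Channels and transporters were assigned to 5 and 7 sites of the experiments, or 2.81% and 2.77% against 2.29% and 2.00% of all sites. Of these, 3 were in both lists, those at Slco4c1, Slc25a13 and the potassium channel gene above. Cytokines and growth factors had 0 sites in experiment 1, of 3 in its whole list, and 4 in experiment 2, of 9 (1.58%, against 0.999% of all sites). Besides Bmp7 these were Hgf, the growth factor of hepatocytes (8.81-fold), Il7, a lymphocyte growth factor (10.5-fold), and the gene for interleukin 19 (9.56-fold). Genes described by a kinase or phosphatase word had 4 and 2 sites (2.25% and 0.791%, against 1.75% and 1.55% of all sites). Among them were Prkab2, a subunit of AMP-activated kinase (8.66-fold), and Stk3, a kinase of the Hippo pathway (9.37-fold). These words also caught Enpp2, a pyrophosphatase and phosphodiesterase (9.18-fold), and missed the gene for the kinase Fyn (8.03-fold), both in experiment 2.

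Genes without any description were the most common label, at 70 sites of experiment 1 (39.3%, against 27.9% of all sites) and 92 of experiment 2 (36.4%, against 25.3%). On either side of the class such shares were 34.8% and 37.9% within 20 kb and 37.6% and 32.5% beyond 100 kb. Most of these features were short, with 51 of 70 and 78 of 92 under 1 kb and medians of 0.590 and 0.484 kb. Genes with a symbol had a median length of 16.9 and 17.1 kb. Sites at features without description were in both lists at 7 of 70 (10.0%) and 7 of 92 (7.61%). Those at genes with a symbol were in both at 16 of 79 (20.3%) and 16 of 110 (14.5%). These counts are small and have no intervals here, so no difference is claimed from them. Of 79 and 108 distinct symbols, 77 and 103 matched RefSeq names of assembly GRCm38.p6, and 72 and 94 of those matched were protein-coding.

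Few genes had more than 1 intermediate-distance site in a list. They were 2 of 176 genes in experiment 1, both without symbol, and 4 of 249 in experiment 2. Besides Csf2ra, the latter included Rph3a, where the site in both lists had a neighbour at 9.64-fold whose summit was 6006 bp away, and the gene for the receptor of adenylate cyclase activating polypeptide 1 (ENSMUSG00000029778). At that gene, the summits of the 2 sites lay 3519 bp apart on chromosome 6 (55468638 to 55468906 at 10.8-fold and 55472126 to 55472451 at 7.07-fold).

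All 20 chromosomes that had sites had some at this distance, led by chromosome 6 with 20 in experiment 1 (11.2%, against 10.1% of all sites) and chromosome 2 with 23 in experiment 2 (9.09%, against 7.88%). The 28 pairs lay on 15 chromosomes, with 4 on chromosome 12. Chromosome X had 16 sites in experiment 1 and 22 in experiment 2, none in both lists (exact upper limits 20.6% and 15.4%), and its highest folds were 10.7 and 12.2. Over all distances, 2 of the 42 and 2 of the 63 sites on chromosome X were in both.

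A few sites had a high implied background. Tags divided by fold and by width in kb give the background that the caller's values imply, in tags per kb. It was above the 95th percentile of its list (10.6 in experiment 1 and 6.67 in experiment 2) at 7 and 12 intermediate-distance sites. The most extreme lay on chromosome 9 from 35112604 to 35113179 near ENSMUSG00000066771 in experiment 2, with 397 tags at 3.24-fold and an implied 213 tags per kb. The pair near ENSMUSG00000080377 on chromosome 3 (5860076 to 5860886) was above the percentile in both lists, with 163 tags and 86 tags. Its fold was 9.70 in experiment 1, above the median of 7.17 there, and 3.79 in experiment 2. Its part in the counts of sites in both lists was 1 of the 28 pairs, and 27 were left without the sites above those percentiles.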

How the data were processed

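The files were annotated lists of binding sites from ChIP-seq of V5-tagged KLF6 against input, 1 list per experiment. The submitters' processing notes name MACS 1.3.6 and mm9, without the step. Aligner, parameters and read numbers were not given in the sources, so depth is unknown and absence from a list was not set against it. Per the file headers, the authors deposited for each site a tag count, a score of 10 times the −log10 of the p-value, a fold enrichment (a ratio) and an FDR in percent. Distances are from the summit to the gene start, per the file headers. All are the peak caller's own values and served to describe and rank sites within a list. For sites in both lists they are also set side by side, without a common scale between the experiments.

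From these, counts, medians and overlaps were computed in Python 3.11.15 with pandas 2.3.3 and scipy 1.17.1. Width is end minus start. Shares have exact Clopper-Pearson 95% intervals, and medians have binomial order-statistic intervals. No test was made, since there was 1 sample a group and sites are not replicates. The overlap and interval code was tested on simulated sites. Members, gene lists and description words were chosen with earlier results of these data known, and the words were corrected after the gene names were read. Named sites were the 20 shared pairs with a symbol of best mean fold rank (16 existed) and the 5 best without, the 6 unshared sites with a symbol of highest fold per list and direction, members of the gene lists, genes with 2 or more sites, sites nearest the distance limits and the 5 lowest FDR values per list. Of these, the report names the leading examples. Other genes were picked after their values were seen. Alternatives changed the score minimum, distance window, overlap rule, small RNA sites, experiments and implied background. Sequences in build mm9 were not used here.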

Additional observations from a re-analysis of the deposited data

How the results depend on the processing

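Of 50 recomputed values, 37 stayed within 1.5 times the main count or inside the main 95% interval and 13 moved. There were 0 changes of sign, which only the differences of median log2 fold between upstream and downstream sites could show. The number of intermediate-distance sites fell, as fewer sites were admitted, to 79 and 117 (experiment 1 and 2) among sites at or above their list's median score, to 98 and 124 up to 50 kb, and to 80 and 129 above 50 kb. Sites in both lists numbered 8 and 8 above 50 kb. They numbered 13 and 13 when an overlap of 50% of both sites was asked for (the cause was not tested), but 28 and 28 with summits within 100 bp. A site under 50% as wide as its partner cannot meet the 50% rule, and the pairs' median widths were 640 bp and 316 bp. Among sites at or above the median score, the upstream share of experiment 2 was 64.1% (the cause was not tested), and the median fold was 10.7 in experiment 1 and 10.7 in experiment 2. The upstream share over distinct sites was 55.6%, and 56.1% to 56.7% with either experiment left out. Leaving out the sites of highest implied background, chosen after seeing the data, gave 27 pairs. No paired analysis was possible because each group had 1 sample and the lists hold the peak caller's values for whole experiments. Tag numbers near the lowest listed values (14 and 9) limit what the lists can show.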
